A study of Mus musculus with 6 samples.

Results

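The comparison described here sets testis at 5 weeks of age (5w) against testis at 4 weeks (4w), 2 of the 6 libraries of a weekly series that runs from 1w to 6w. All libraries came from testes of FVB mice for which the labels give no transgene or treatment, and each week is 1 library, so the 2 ages differ by age and by whatever else separates 1 library from another. How many mice gave each RNA sample was not given in the sources used here. The assay was 3'READS, which captures the end of poly(A)+ transcripts and counts reads at each polyadenylation site (pA). A gene's level was the sum of its reads at pAs in the last exon, after pAs listed for more than 1 gene were left out, and was scaled to RPM (reads per 1000000 reads of the library). Of 16197 genes with a last-exon pA, 10193 had at least 20 reads over both libraries and were compared.

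During the first wave of spermatogenesis in the mouse, germ cells advance in near synchrony from spermatogonia through meiosis to round spermatids, which then elongate, replace their histones by transition proteins and protamines, and build the sperm tail, its mitochondrial sheath and the acrosome. Transcription stops as the spermatid nucleus condenses, so many of these mRNAs are made early and stored. Leydig cells, which lie between the tubules and make androgens from cholesterol, pass from an immature to an adult form over the same period. Most genes end their transcripts at more than 1 site (alternative polyadenylation, APA), and testis is known for short 3' untranslated regions (3'UTRs).

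The kept pAs held 4026419 reads at 4w and 4771294 at 5w, against 3497870 to 5427850 over the series. A single read was worth 0.248 RPM in the 4w library and 0.210 RPM in the 5w library, and 94.0% of the reads of either library were in last exons. With 1 library per week there is no replicate error and no test. Each ratio is given with its exact 95% interval, which covers counting error only, and PCR copies of 1 molecule cannot be told from separate molecules. A gene was called higher or lower where its RPM differed by 2-fold or more and the interval left out 1. In RNA from whole testis, fewer cells of a type and less RNA per cell cannot be told apart.

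A pair of late spermatid genes took a growing part of the sequencing. Tnp1 (transition protein 1, which replaces histones in the spermatid nucleus) held 6.82% of the reads at 4w and 11.7% at 5w, and Prm1 (protamine 1, the main packing protein of sperm DNA) 3.71% and 7.59%. Together they went from 10.5% to 19.3% of the reads and reached 23.2% at 6w, and the 10 most abundant genes went from 20.3% to 29.0%. Because RPM is a share, the gain of these genes lowers the value of every other gene. Taking the 10 most abundant genes out of both totals adds 0.16 to every log2 ratio. Of the 10193 genes, 8016 were lower in RPM at 5w and 2177 higher, and the median gene had a ratio of 0.763, or a log2 ratio of -0.39. That is a larger shift than 0.16, and what makes up the rest was not tested. Values "relative to the median gene" below are log2 ratios with the whole shift of -0.39 taken out, and do not depend on the scaling.

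By RPM, 92 genes were called higher, 0.903% of those compared, and 926 lower, 9.08%. With libraries scaled by TMM, which sets the bulk of genes level and adds 0.38 to every log2 ratio, 389 genes were higher (3.82%) and 258 lower (2.53%). The share of calls that were higher was thus 9.04% by RPM and 60.1% by TMM. The middle of the distribution was narrow on either scale, with 5% of genes under a ratio of 0.422 and 5% above 1.48. Most calls were of thinly read genes, since 50 of the 92 higher and 683 of the 926 lower genes had under 100 reads over both libraries. The genes called higher rose from 4.21% to 8.80% of the reads, and those called lower fell from 1.86% to 0.808%. These directions are set by the calls themselves. Prm1 alone made up 3.71% and 7.59% of the reads within the first of these groups.

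**Figure D1:**
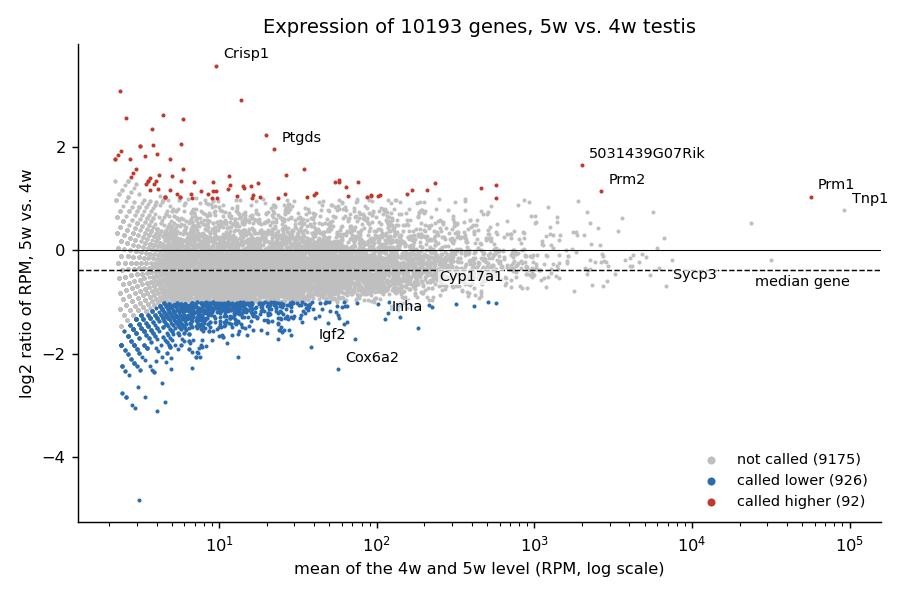
Log2 ratio of RPM at 5w over 4w (vertical axis) against the mean level of the 2 libraries (RPM, log scale) for the 10193 genes, with genes called higher in red, lower in blue and not called in grey. The dashed line is the median gene at -0.39, and Prm1 and Tnp1 stand at the far right above it.

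Of the 92 genes higher at 5w, 66 had also been higher at 4w than at 3w, and 35 were higher again at 6w. Of the 926 lower genes, 861 had also been lower at 4w than at 3w, and 490 were lower again at 6w. Over all 10193 genes, 2768 were higher and 7425 lower at 4w than at 3w, and 3164 were higher and 7028 lower at 6w than at 5w. These adjacent comparisons share a library, so the counts are descriptions.

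Among the genes with at least 200 reads, the highest ratio was that of Ptgds (prostaglandin D synthase, also a gene of the adult Leydig list), with 37 reads (9.19 RPM) at 4w and 169 (35.4 RPM) at 5w, a ratio of 3.85 (2.69 to 5.66). Its count went on to 368 reads at 6w from 23 at 3w, so 4w lies near its low point. The uncharacterised gene 5031439G07Rik had 3887 reads (965 RPM) at 4w and 14375 (3013 RPM) at 5w, a ratio of 3.12 (3.01 to 3.23). It had at most 90 reads in any of the first 3 weeks. Its gain in RPM was exceeded only by those of Tnp1, Prm1, Galntl5 and Pkib.

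The other 8 genes of that ranking were 1700012A03Rik (ratio 2.95), Gm614 (2.75), 4930544D05Rik (2.54), Pax1 (2.49), Adc (2.49), Nqo2 (2.48), Tmem8 (2.47) and Glul (2.39). With reads at intron and upstream exon pAs added, the ratio of 4930544D05Rik was 1.77, under the size needed for a call. Pax1 is a paired-box transcription factor, and its reads went from 125 to 369 after no more than 1 in each of the earlier weeks. Nqo2 encodes a quinone reductase and went from 175 to 515 reads. Glul, glutamine synthetase, had 1353 reads at 4w and 3823 at 5w. Unlike Pax1 it was not a gene of the late weeks, with 2233 reads at 2w. Tmem8 had 543 and 1586 reads in the libraries compared and 608 at 6w, so its higher value did not last.

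The lowest ratio was that of Cox6a2, a subunit of the last complex of the respiratory chain, with 378 reads (93.9 RPM) at 4w and 91 (19.1 RPM) at 5w, a ratio of 0.203 (0.160 to 0.256). Only 3 reads were left at 6w, and 4w was its highest week. Igf2, a fetal growth factor, had 242 reads (60.1 RPM) and 79 (16.6 RPM), a ratio of 0.275 (0.211 to 0.357), and fell in every week from 2073 reads at 1w to 14 at 6w. H1fx, a linker histone, had 447 and 161 reads, a ratio of 0.304 (0.252 to 0.365). The next were Ptms (0.322), Uqcrc1 (0.334), Psat1 (0.335), Scml2 (0.343), Cbx8 (0.343), Phf20 (0.344) and Ocrl (0.346). Scml2 and Cbx8 are Polycomb proteins, and Psat1 is an enzyme of serine synthesis. By RPM and by TMM all 10 of these genes were lower.

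In RPM gained, Tnp1 and Prm1 led, followed by Galntl5 (19526 to 28039 RPM), Pkib (4254 to 7119), 5031439G07Rik, Prm2, Gm5901 (2834 to 4373), Fam71f2 (1298 to 2499), Tnp2 and 4930453N24Rik (6085 to 7139). Galntl5 is a glycosyltransferase-like protein of the sperm acrosome region, and Pkib is an inhibitor of protein kinase A. The largest losses were of genes that stayed abundant. Dkkl1, a spermatocyte and spermatid gene of the acrosome, went from 33681 to 29681 RPM, a ratio of 0.881 (0.875 to 0.888), which is 0.21 above the median gene, so its direction turns with the scaling. Syngr4 (7915 to 6916 RPM, 0.20 above the median gene) and Slc25a39 (6871 to 5419 RPM, 0.05 above it) turn in the same way.

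Sycp3, a component of the synaptonemal complex of meiosis, was lower by RPM and also against the median gene. It had 33882 reads (8415 RPM) at 4w and 24934 (5226 RPM) at 5w, a ratio of 0.621 (0.611 to 0.631) and 0.30 below the median gene. Rsph1 (3348 to 2075 RPM), Rab5c (2836 to 1770), 1700102P08Rik (3472 to 2294), Atpif1 (9301 to 6657), Rbm39 (6319 to 4528) and Hdgf (3760 to 2753) were between 0.06 and 0.30 below it. For Atpif1, Rbm39 and Hdgf the distance was under 0.10.

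The 7 spermatid nuclear protein genes all moved the same way. Each was higher in RPM at 5w and each lay above the median gene, with a list median of 0.75 on the log2 scale and of 1.14 relative to the median gene. The call was reached by 2 of the 7 by RPM, against 0.903% of all genes compared, and by 5 by TMM, against 3.82%. The reads of Prm1 went from 149245 to 362117, a ratio of 2.05 (2.04 to 2.06). Prm2, the second protamine, had 6691 and 17463 reads (1662 and 3660 RPM), a ratio of 2.20 (2.14 to 2.27). Tnp1 had 274743 and 558221 reads, a ratio of 1.71 (1.71 to 1.72).

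Prm1 and Prm2 had larger ratios than the transition protein genes, since their intervals lie above those of Tnp1 and of Tnp2, which had 1615 and 2684 RPM and a ratio of 1.66 (1.61 to 1.71). H1fnt, a linker histone of elongating spermatids, had 579 and 1155 reads, a ratio of 1.68 (1.52 to 1.86). Hils1, another such linker histone, had 3308 and 5671 reads, a ratio of 1.45 (1.39 to 1.51), and Prm3, an acidic protein named for its place in the protamine cluster, 505 and 840 reads and a ratio of 1.40 (1.26 to 1.57). All 7 had more reads again at 6w, where Prm1 reached 520357 and Tnp1 738205.

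**Figure D2:**
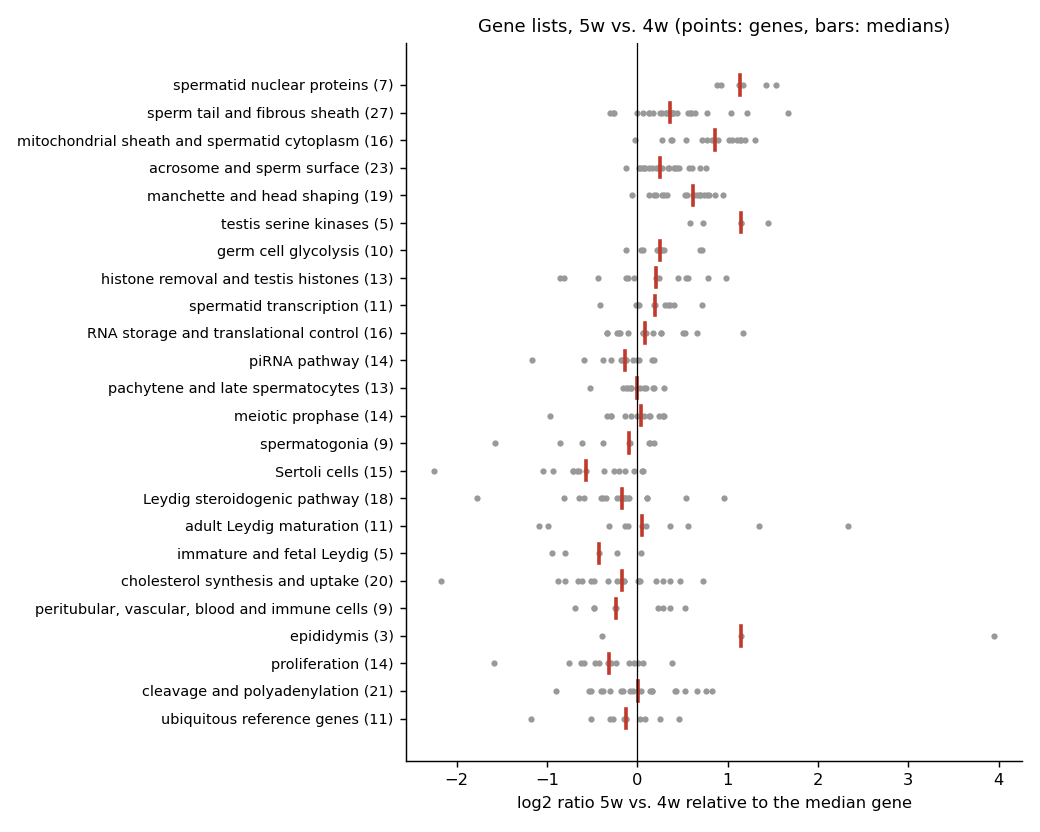
Log2 ratio at 5w over 4w relative to the median gene for every measured member (grey points) of 24 gene lists, with the list median as a red bar and the number of measured members in parentheses. Lists of late spermatids sit right of 0 at the top, with the spermatid nuclear proteins at 1.14 and the testis serine kinases at 1.15, and Sertoli cell genes sit left of it at -0.57.

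The testis serine kinases, signalling enzymes of elongating spermatids and sperm, moved by a like amount. All 5 measured members were above the median gene, with a list median of 1.15 relative to it, and 1 was called higher by RPM and 3 by TMM, against the same 0.903% and 3.82%. Tssk6 went from 240 to 593 reads (59.6 and 124 RPM), a ratio of 2.09 (1.79 to 2.43). Tssk3 had 66 and 132 reads (ratio 1.69), Tssk2 405 and 605 (1.26) and Tssk1 1169 and 1579 (1.14, 1.06 to 1.23). The kinases with most reads at 4w had thus the smaller ratios.

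For genes of the mitochondrial sheath and spermatid cytoplasm, 15 of 16 were above the median gene, with a list median of 0.86 relative to it. None was called by RPM and 7 were called higher by TMM (against 3.82% of all genes), namely Smcp, Spata18, Txndc2, Spert, Theg, Gsg1 and Spatc1. Spata18, a protein of spermatid mitochondria, had 346 and 771 reads (85.9 and 162 RPM), a ratio of 1.88 (1.65 to 2.14). Spert had 606 and 1216 reads, a ratio of 1.69 (1.53 to 1.87), and Spata19 1356 and 2182, a ratio of 1.36 (1.27 to 1.45). Well-read members close to level in RPM were Hspb9 (460 and 459 RPM), Dnajb3 (755 and 747) and Meig1 (1698 and 1570), and lay 0.28 to 0.39 above the median gene.

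Manchette and head-shaping genes, which serve the microtubule sleeve that forms the sperm head, were above the median gene in 18 of 19 cases, by a median of 0.62. No member reached 2-fold by either scaling. Spag4 had 4331 and 6168 reads (ratio 1.20), Ift172 4519 and 6620 (1.24), Spata6 1915 and 2667 (1.18) and Spata16 5068 and 5016 (0.835), so Spata16 was lower in RPM and 0.13 above the median gene. Of the 27 genes of the sperm tail and fibrous sheath, 23 were above the median gene, by a list median of 0.36, while the list median in RPM was -0.03 on the log2 scale.

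Members of the tail list lay between 0.30 below and 1.67 above the median gene. By RPM 1 of the 27 was called higher (against 0.903% of all genes) and by TMM 3 were (against 3.82%). Fscb, a calcium-binding protein of the fibrous sheath, had 691 and 1284 reads (172 and 269 RPM), a ratio of 1.57 (1.43 to 1.72). Akap14, an anchor for protein kinase A, had 8 and 23 reads and was the member called by RPM. Akap4, the main protein of the fibrous sheath, had only 10 and 21 reads, a ratio of 1.77 with an interval (0.799 to 4.21) that holds 1. Ropn1l (4933 and 4683 RPM), Tekt2 (591 and 574) and Spag6 (274 and 235), which are known from the sheath or the axoneme, were 0.17 to 0.35 above the median gene, and Rsph1, a radial spoke protein, was 0.30 below it. Tekt4, Akap3 and Cabyr lay 0.56 to 0.60 above it.

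Acrosome and sperm surface genes were above the median gene in 22 of 23 cases but by only 0.25 at the median, and none was called by either scaling. Spaca4 (1966 and 2248 reads), Adam3 (1350 and 1632), Spink2 (9894 and 9056) and Eqtn, listed as 4930579C15Rik (6878 and 8263), had ratios of 0.965, 1.02, 0.772 and 1.01. Germ cell glycolysis genes lay 0.25 above the median gene at the list median, with 9 of 10 above it. Pgk2, the sperm phosphoglycerate kinase, had 3077 and 4576 reads (ratio 1.25, 1.20 to 1.31), while Ldhc, the testis lactate dehydrogenase, had 5991 and 6630 (0.934, 0.902 to 0.967).

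Genes of histone removal and testis histones were mixed, with 7 of 13 above the median gene and a list median of 0.20 relative to it. H2afb1, a histone variant of condensing spermatids, had 403 and 717 reads, a log2 ratio of 0.59 and 0.98 above the median gene. Rnf8, a ubiquitin ligase that acts on spermatid histones, had 70 and 36 reads (0.434, 0.282 to 0.658), and Hist1h2aa 28 and 14 (0.422, 0.205 to 0.829). Both were called lower by RPM, which is 2 of 13 against 9.08% of all genes, and neither by TMM. Chd5, a remodeler of spermatid chromatin, had 447 and 597 reads, a ratio of 1.13 (0.995 to 1.28).

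Lists of round spermatids and earlier germ cells lay close to the median gene. The list medians relative to it were 0.20 for spermatid transcription (9 of 11 above it), 0.08 for RNA storage and translational control (10 of 16), 0.04 for meiotic prophase (7 of 14), -0.0027 for pachytene and late spermatocytes (6 of 13), -0.09 for spermatogonia (3 of 9) and -0.14 for the piRNA pathway (3 of 14). Fhl5, a partner of the spermatid activator CREM, had 2080 and 3078 reads (ratio 1.25), while Crem itself had 1253 and 1284 (0.865). Eif4h, a translation initiation factor, had 1065 and 2173 reads, a ratio of 1.72 (1.60 to 1.85), and was called higher by TMM.

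Ybx2, the RNA-binding protein that coats stored mRNAs, had 12243 and 12454 reads (3041 and 2610 RPM) and lay 0.17 above the median gene, so its direction turns with the scaling. Called lower were Stra8 (43 and 13 reads), which starts meiosis, Dmc1 (26 and 12), the meiotic recombinase, Tdrkh (47 and 19) of the piRNA pathway and Dnmt3b (76 and 45), a DNA methyltransferase of spermatogonia. They make up 2 of 9 spermatogonial, 1 of 14 meiotic prophase and 1 of 14 piRNA pathway genes, against 9.08% of all genes compared. Stra8 and Tdrkh were also called by TMM. With intron and upstream exon pAs added, Tdrkh had a ratio of 0.925 and was not called. The 4 best-read piRNA pathway genes were not called. Of these, Mael lay 0.16 and Pld6 0.02 above the median gene, and Tdrd6 lay 0.17 and Tdrd1 0.29 below it. Of the genes of the proliferation list 3 of 14 were called lower, Mcm2, Ccnb1 and Tyms, against 9.08% of all genes compared. The list median was -0.31 relative to the median gene. Its 4 best-read members were not called. Of these, Mcm7 lay 0.38 and Aurka 0.01 above the median gene, and Cdk1 lay 0.29 and Top2a 0.42 below it. Uchl1, an abundant spermatogonial protein, had 1232 and 1054 reads and lay 0.08 below the median gene.

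**Figure D3:**
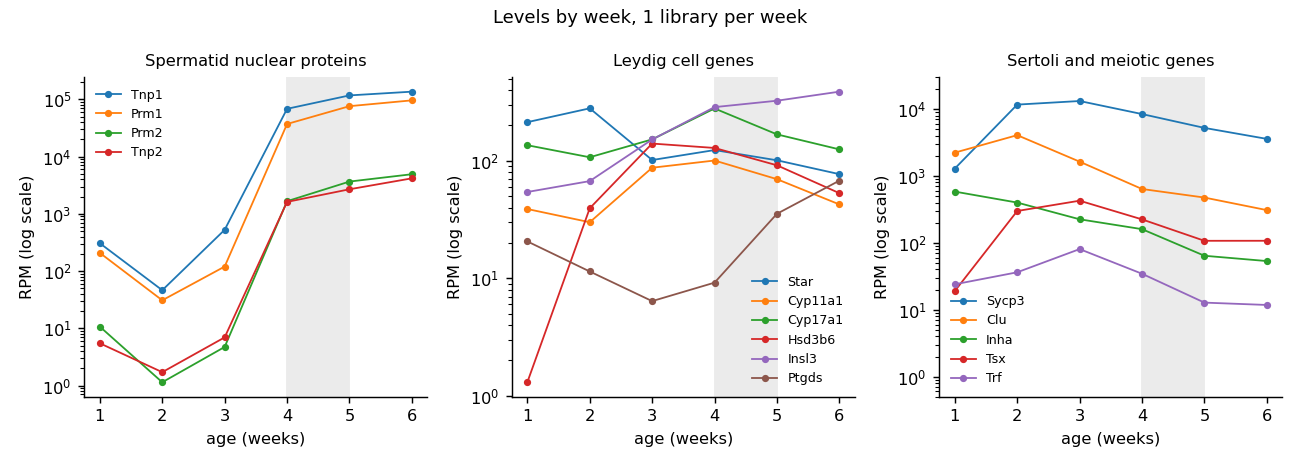
Level by week (RPM, log scale) of spermatid nuclear protein genes (left), Leydig cell genes (middle) and Sertoli and meiotic genes (right), 1 library per week and 1 line per gene, with the step from 4w to 5w shaded. Tnp1, Prm1, Prm2 and Tnp2 went on upwards, Star, Cyp11a1, Cyp17a1 and Hsd3b6 went down, and Insl3 and Ptgds went up.

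Of the 18 measured genes of the Leydig steroidogenic pathway, 16 were lower in RPM at 5w, against 8016 of all 10193 genes. The median gene was exceeded by 4, and the list median was -0.56 on the log2 scale and -0.17 relative to the median gene. By RPM 3 were called lower (16.7%, against 9.08% of all genes compared) and none higher, and by TMM 1 was called lower. Star, which brings cholesterol into the mitochondrion, had 497 reads (123 RPM) at 4w and 482 (101 RPM) at 5w, a ratio of 0.818 (0.721 to 0.930). Cyp11a1, which makes pregnenolone from it, had 405 and 333 reads (101 and 69.8 RPM), a ratio of 0.694 (0.598 to 0.804). Star was 0.10 above the median gene and Cyp11a1 0.14 below it.

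Downstream of these, Hsd3b6, the 3-beta-hydroxysteroid dehydrogenase of adult Leydig cells, had 518 and 437 reads (129 and 91.6 RPM), a ratio of 0.712 (0.625 to 0.810). Hsd3b1, a form that immature cells also use, had 253 and 195 reads, a ratio of 0.650 (0.537 to 0.787), and the intervals overlap. Cyp17a1, which makes androgen precursors, had 1123 and 801 reads (279 and 168 RPM), a ratio of 0.602 (0.549 to 0.660), 0.34 below the median gene. 4w was its week with the highest RPM. Hsd17b3, the last enzyme of testosterone synthesis, had 0 and 2 reads and was under the minimum, which allows up to 0.745 RPM at 4w from the 3 reads that a count of 0 allows.

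The electron carriers and supply genes named next were lower in RPM too, but none was called by RPM or TMM. Fdx1 had 527 and 366 reads (ratio 0.586), Cyb5 1730 and 1367 (0.667), Fdxr 48 and 39 (0.686) and Por 45 and 27 (0.506). Scarb1, the receptor that takes up cholesterol esters, had 402 and 275 reads, a ratio of 0.577 (0.493 to 0.675), and Soat1 33 and 28 (0.716). Tspo, an outer mitochondrial membrane protein, had 41 and 40 reads (0.823, 0.519 to 1.30), and its partner Acbd3 264 and 217 (0.694, 0.577 to 0.833). With counts this low, the intervals of Fdxr, Tspo and Soat1 hold 1. Tspo lay 0.11 above the median gene, so its direction turns with the scaling.

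The 3 genes called lower were Lhcgr, Nr5a1 and Acat1. Lhcgr, the receptor for luteinizing hormone, had 19 and 5 reads and a ratio of 0.222 (0.0648 to 0.615). Nr5a1, the nuclear receptor that drives steroidogenic genes, had 33 and 17 (0.435, 0.227 to 0.803). Acat1, a list member that is not itself a steroidogenic enzyme, had 45 and 26 (0.488, 0.289 to 0.807). Only Lhcgr was called by TMM. Higher in RPM were Lipe, hormone-sensitive lipase, with 242 and 425 reads and a ratio of 1.48 (1.26 to 1.74), and Nr4a1, with 478 and 630 (1.11, 0.986 to 1.26). Lipe had under 20 reads in each of the first 3 weeks.

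Genes marking the adult Leydig cell did not move together. Of 11 measured, 1 was called higher (Ptgds) and 2 lower (Prlr and Fads1) by RPM, against 0.903% and 9.08% of all genes, with 6 above the median gene and a list median of 0.06 relative to it. Sult1e1, an estrogen sulfotransferase of adult Leydig cells, had 27 and 62 reads, a ratio of 1.94 (1.21 to 3.17), and was called higher by TMM. Prlr, the prolactin receptor, had 61 and 26 reads (0.360, 0.218 to 0.578) and Fads1, a fatty acid desaturase, 119 and 54 (0.383, 0.272 to 0.532). Both were called lower by TMM as well.

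The remaining adult markers were not called. Ephx1 had 101 and 117 reads (ratio 0.978, 0.743 to 1.29), Vcam1 100 and 133 (1.12, 0.859 to 1.47), Gsta2 67 and 63 (0.794, 0.554 to 1.14) and Agt 37 and 27 (0.616, 0.361 to 1.04), each with an interval that holds 1. The interval of Vcam1 lies above the ratio of the median gene, and its log2 ratio was 0.56 above it. Gstm1 had 4449 and 3625 RPM, and Gstm2 1352 and 938 RPM. Gstm1 is not particular to Leydig cells. Hsd11b1 had 2 and 4 reads.

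Insl3, the peptide hormone of adult Leydig cells, was left out of the comparison because its pA is also listed for Jak3. The reads at that pA went from 1153 (286 RPM) to 1549 (325 RPM), a ratio of 1.13 (1.05 to 1.22) and 0.57 above the median gene, and reached 2104 at 6w. Genes of the immature and fetal Leydig list had a median of -0.43 relative to the median gene, with 2 of 5 called lower by RPM, against 9.08% of all genes. Those were Srd5a1, the 5-alpha-reductase of immature cells, with 111 and 52 reads (0.395, 0.279 to 0.554), and Pdgfra with 29 and 15. Neither was called by TMM.

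Of 20 genes of cholesterol synthesis and uptake, 5 were called lower and none higher by RPM, against 9.08% and 0.903% of all genes, with a list median of -0.17 relative to the median gene. Among them were Tm7sf2 (84 and 48 reads), Acat2 (53 and 26) and Srebf2 (25 and 13), none of which was called by TMM. With intron and upstream exon pAs added, Tm7sf2 and Srebf2 had ratios of 0.524 and 0.531 and were not called by RPM. Cyp51, which the germ line also uses to make meiosis-activating sterols, had 271 and 299 reads (0.931, 0.787 to 1.10) and lay 0.29 above the median gene. Sqle and Dhcr7 had ratios of 0.775 and 0.653.

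Sertoli cells, which nurse the germ cells within the tubule, gave the list with the lowest median of the 24. Of 15 measured genes, 7 were called lower by RPM (Sox9, Wt1, Inha, Gja1, Trf, Cst12 and Tsx), against 9.08% of all genes, and 2 by TMM (Sox9 and Trf), against 2.53%, and the list median was -0.57 relative to the median gene with 2 members above it. Inha, the inhibin alpha subunit, had 645 reads (160 RPM) at 4w and 306 (64.1 RPM) at 5w, a ratio of 0.400 (0.348 to 0.459). Tsx had 903 and 512 reads (0.478, 0.428 to 0.534), and Trf, the iron carrier transferrin, 139 and 61 (0.370, 0.269 to 0.504). Clu (2569 and 2268 reads, 0.745), Ctsl (3161 and 2590, 0.691) and Defb36 (1929 and 1824, 0.798) lay within 0.15 of the median gene.

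Summed levels were taken over all list genes in the data, with those under the minimum. That of 21 Sertoli genes went from 2662 to 1764 RPM and that of 19 Leydig pathway genes from 1665 to 1197 RPM. That of 19 genes of the tubule wall, vessels, blood and immune cells went from 313 to 183 RPM. These sums hold the general shift in RPM, in which the median gene had a ratio of 0.763. In the last list 1 of 9 measured genes, C1qa of macrophages (132 and 74 reads), was called lower, against 9.08% of all genes. The list median was -0.23 relative to the median gene. The reads of 11 ubiquitous reference genes had a median of -0.13 relative to it. The part that the mix of cells has in the Leydig and Sertoli values was not tested.

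Epididymal genes were counted too, since the duct lies against the testis. Of 12 genes listed, 3 reached the minimum. Crisp1, a secreted protein of the epididymal duct, had 6 reads at 4w and 84 at 5w, a ratio of 11.8 (5.21 to 33.1) that was the largest of all 10193. Its reads numbered 325 and 421 in the 2w and 3w libraries and 7 at 6w. Spink8 had 16 and 32 reads (ratio 1.69, 0.899 to 3.29), and Eppin, listed as Spinlw1, 132 and 91. Of genes outside the list, the beta-defensin Defb39, named after its values were seen, had 13 and 115 reads (ratio 7.47, 4.20 to 14.4) and 1379 at 3w. The summed level of all 12 listed genes, with those under the minimum, was 42.2 RPM at 4w and 48.0 RPM at 5w. Lcn5, Lcn8, Adam7 and Rnase9 were at 0 in both libraries. The part of epididymal tissue in these values was not tested.

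For site usage, the pair of last-exon pAs with most reads over all 6 libraries in each gene were taken as the proximal (Prx-pA) and the distal site (Dis-pA). The stretch between them is the alternative UTR (aUTR), and the stretch from the stop codon to the Prx-pA the constant UTR (cUTR). Relative expression (RE) is the log2 ratio of distal to proximal reads, each count raised by 1, and its difference (RED) at 5w vs. 4w is negative where the 3'UTR became shorter. A gene was called where RED was at least 1 in size and the 95% interval of the difference in Dis-pA share (Newcombe) left out 0. These values compare 2 sites within a gene and do not depend on library scaling.

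Among 5618 genes with at least 20 such reads in each library, RED was negative in 3567 and positive in 2028, with a median of -0.26. Shortening was called in 439 genes, 7.81% of those compared, and lengthening in 109, 1.94%. In the shortened genes the median Dis-pA share went from 58.3% at 4w to 33.7% at 5w, and in the lengthened genes from 29.2% to 56.6%. Over all genes compared it went from 53.0% to 47.8%, after 81.3%, 81.8% and 71.8% in the first 3 weeks, and was 45.0% at 6w.

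The sequences just before both pAs are shown for genes that carry this shift, namely 3 with large falls in Dis-pA share (Kif15, Insig1 and Wasf2), the example gene Eif4h, and Scarb1, which had the largest rise among well-read genes. Each is the 30 nt ending at the pA in the mouse genome build mm9, 5′ to 3′ on the transcript strand, with a polyadenylation signal (PAS) hexamer in capitals where 1 was found. All lie in the last exon, in the 3'UTR.
Kif15 Prx-pA, chr9:122927323-122927352 (+): agaactaaACTAAAagaccttaactatgaa
Kif15 Dis-pA, chr9:122927822-122927851 (+): tttttcaAATAAAatcttttttaaaaacaa
Insig1 Prx-pA, chr5:28403454-28403483 (+): tgggctgacGATAAAtgactcctaaagaca
Insig1 Dis-pA, chr5:28405173-28405202 (+): ttttttacttttATTAAAggttcaaaacca
Wasf2 Prx-pA, chr4:132751880-132751909 (+): gacaaagaactgcaaggggccaaagccaaa
Wasf2 Dis-pA, chr4:132755642-132755671 (+): tttGATAAAgtctttgtagtcactcagtca
Eif4h Prx-pA, chr5:135097198-135097227 (-): gtggtttctagtacattcttggctttgcta
Eif4h Dis-pA, chr5:135095746-135095775 (-): cttttaAATAAAagagaaccttacataaca
Scarb1 Prx-pA, chr5:125757500-125757529 (-): tggaagagaaattttatcatcttttgaaag
Scarb1 Dis-pA, chr5:125757457-125757486 (-): aagcAATAAAccttttcactgattcaacaa

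In Kif15, Insig1 and Eif4h the Dis-pA had the hexamer AATAAA or ATTAAA and the Prx-pA had a rarer variant or none. Scarb1 had the same arrangement although its usage went the other way, and Wasf2 had a variant at the Dis-pA only. Counted over all genes, the 30 nt before the pA held AATAAA or, failing that, ATTAAA at 46.3% of the 5618 Prx-pAs and 71.1% of the Dis-pAs, against 48.6% of all 45622 last-exon pAs. Only the transcript strand was searched, and a window with both was counted under AATAAA.

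In the 439 shortened genes the share was 32.8% at the Prx-pA and 76.3% at the Dis-pA, so the gap between the sites was wider than in all genes compared. Neither motif nor any of 8 variants was found before 40.8% of their Prx-pAs, against 32.4% over all genes. The variants were AGTAAA and also ACTAAA with a change of the second base, TATAAA along with CATAAA and likewise GATAAA with a change of the first, and AATATA as well as AATACA and finally AATAGA with a change of the fifth. In the 109 lengthened genes the share was 46.8% at the Prx-pA and 63.3% at the Dis-pA. These are descriptions of letters in a fixed window with no test, and the shares rest on the pAs that passed the read minimum.

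**Figure D4:**
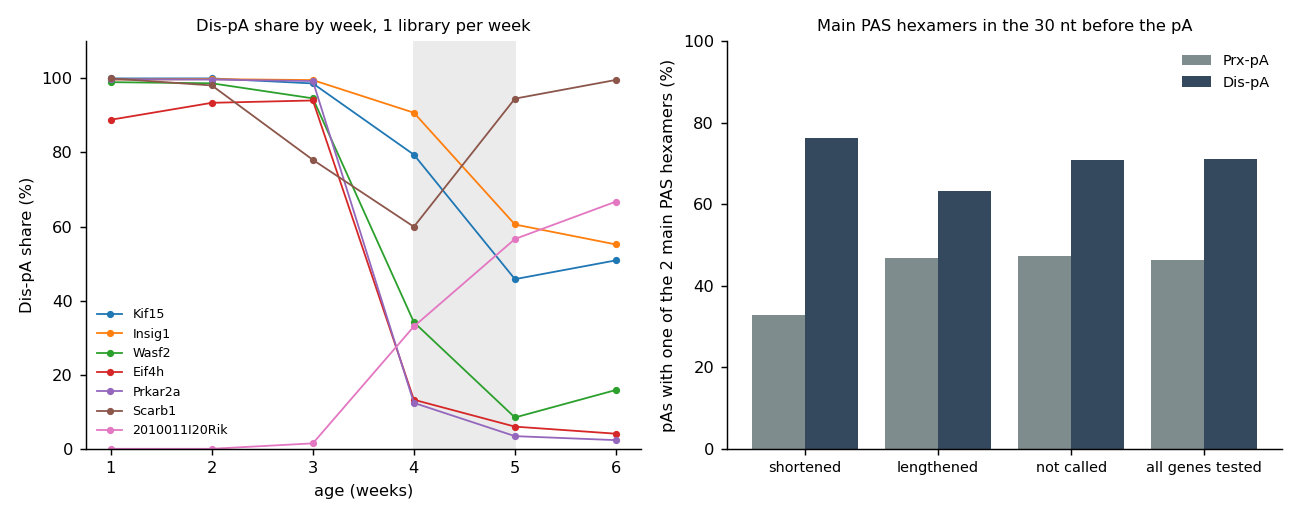
Left, Dis-pA share (% of Prx-pA and Dis-pA reads) by week for 7 genes, 1 library per week, with the step from 4w to 5w shaded. Right, share of pAs with one of the 2 main PAS hexamers in the 30 nt before the pA, for Prx-pAs and Dis-pAs of shortened, lengthened, not called and all genes, where shortened genes have the lowest bar at the Prx-pA (32.8%).

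Kif15, a kinesin of the mitotic spindle, had 28 Prx-pA and 108 Dis-pA reads at 4w and 71 and 60 at 5w, so its Dis-pA share went from 79.4% to 45.8%, a difference of -33.6 points (-43.8 to -22.2). The share had been 98.6% at 3w and was 50.9% at 6w. Wasf2, an actin regulator of the WAVE complex, had 235 and 122 reads at 4w and 650 and 60 at 5w, and its Dis-pA share went from 34.2% to 8.45%, a RED of -2.48. Its aUTR spans 3762 nt and its cUTR 120 nt. The short isoform of Wasf2 therefore gained reads while the long one lost them, and its summed level lay 0.98 above the median gene.

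The other genes among the 10 largest falls with at least 100 reads in each library, ranked after the values were seen, were Prcp (49.5% to 21.1%), 1700029F09Rik (50.4% to 22.4%), Bri3bp (63.3% to 36.3%), Ddx19b (53.4% to 26.8%), Cspp1 (58.6% to 32.6%), Mdm1 (57.8% to 32.4%), Tmem123 (40.3% to 15.2%) and Map2k7 (54.2% to 29.3%). All but Ddx19b had a Dis-pA share over 80% in each of the first 3 weeks, so most of their shift came between 3w and 4w and a second part between 4w and 5w. The share covers 2 sites only. Weighted by reads over all its last-exon pAs, the mean 3'UTR size of Bri3bp was 289 nt at 4w and 306 nt at 5w. For Map2k7 that size was 138 nt in both weeks, and its Prx-pA does not lie beyond the stop codon used. Its fall in share is thus not a measured 3'UTR shortening. Of the 2510 genes with that many reads, 206 were called shortened, 97 of them by 10 points or more, and 39 lengthened, 10 of them by 10 points or more.

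Ranked by RED among called genes with at least 100 reads in each library, the lowest values were those of Mgrn1 (-3.72), Tmem8 (-3.56), Stk25 (-3.44), 4930519G04Rik (-2.90), Rab2b (-2.88), Afap1 (-2.85), Arhgef6 (-2.84), Taf9b (-2.77), Abhd2 (-2.73) and Ube2w (-2.62). In Tmem8, Taf9b and Abhd2 the Dis-pA was rare in both libraries, at 1.29%, 0.935% and 1.91% at 4w, and RED rests on a handful of reads. The calls of Abhd2 and Ube2w ended when both pAs were chosen by their reads at 4w and 5w alone, with RED values of -0.16 and -0.46. In Stk25 the pAs lie 40 nt apart.

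Afap1, an actin filament protein, had 109 and 28 reads at 4w and 299 and 10 at 5w, and its Dis-pA share went from 20.4% to 3.24% after 91.1% at 3w. Ube2w, a ubiquitin-conjugating enzyme, had 115 and 30 reads and then 160 and 6, a change from 20.7% to 3.61%, but from 79.3% to 73.4% with the pAs of the other choice. In Mgrn1 and Rab2b, a ubiquitin ligase and a small GTPase, the Dis-pA stayed the main site, with 99.4% and 88.0% for Mgrn1 and 99.4% and 92.6% for Rab2b.

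Eif4h had 924 Prx-pA and 141 Dis-pA reads at 4w and 2043 and 130 at 5w. Its Dis-pA share went from 13.2% to 5.98%, a difference of -7.26 points (-9.61 to -5.07) and a RED of -1.26, after 94.0% at 3w. Its gain in expression was thus in the short isoform. Cep57, a centrosomal protein, had 223 and 258 reads and then 380 and 273, a change from 53.6% to 41.8% (difference -11.8 points, -17.6 to -5.95). Its RED of -0.69 was under the size needed for a call.

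**Figure D5:**
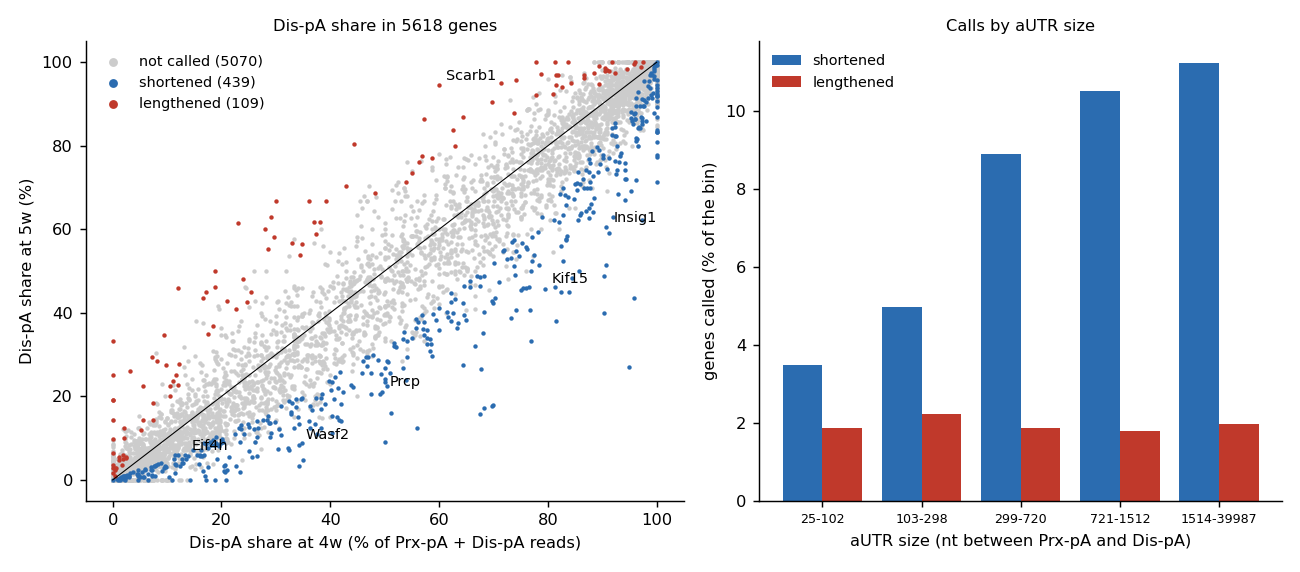
Left, Dis-pA share at 5w against that at 4w (%) for the 5618 genes, with shortened genes in blue, lengthened in red and the line of equal shares in black. Right, percentage of genes called in 5 groups of aUTR size (nt), where the shortened share goes from 3.47% to 11.2% and the lengthened share stays between 1.78% and 2.22%.

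Genes called shortened had long aUTRs and short cUTRs. The median aUTR was 842 nt against 485.5 nt over all genes compared, and the median cUTR 174.5 nt against 274 nt. In 5 groups of equal size by aUTR length, the share called shortened was 3.47% (25 to 102 nt), 4.98% (103 to 298 nt), 8.90% (299 to 720 nt), 10.5% (721 to 1512 nt) and 11.2% (1514 to 39987 nt). Median RED went from -0.12 in the shortest group to -0.40 in the longest. The share called lengthened was between 1.78% and 2.22% in all 5 groups.

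Both isoforms differed from the median gene. In the 439 shortened genes the Prx-pA isoform was 0.95 above the median gene at the median and above it in 422, while the Dis-pA isoform was 0.57 below it and below it in 395. The genes were called by the ratio of these values, so the signs are given with no test. Their summed level was 0.24 above the median gene, against 0.02 over all genes compared, and 4 of them were called higher and 17 lower (0.911% and 3.87%, against 0.427% and 5.14% of all 5618). In the lengthened genes the Prx-pA isoform was 0.66 below the median gene and the Dis-pA isoform 0.82 above it.

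The Dis-pA share had already been lower at 4w than at 3w in 325 of the 439 shortened genes, and was lower again at 6w in 160. Over all 5618 genes it was lower in 3867 and 2916, so the share of shortened genes was 74.0% against 68.8% for the earlier step and 36.4% against 51.9% for the later one. Of the 109 lengthened genes, 93 had a lower Dis-pA share at 4w than at 3w and 83 a lower one at 6w than at 5w, so their median share, 44.4% at 3w, was at its lowest at 4w and was 42.2% at 6w after the high of 5w. These steps share the 4w or the 5w library with the calls, so the counts are descriptions.

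Scarb1 had the largest rise among genes with at least 100 reads. It had 161 Prx-pA and 241 Dis-pA reads at 4w and 15 and 260 at 5w, and its Dis-pA share went from 60.0% to 94.5%, a difference of 34.6 points (28.8 to 39.9). The share was 98.1% at 2w, then 78.0% at 3w, and 99.6% in the 6w library, so the Prx-pA was used mostly at 3w and 4w. The sites lie 43 nt apart, beyond the 24 nt within which the authors merged cleavage positions. The fall in Scarb1 reads from 402 to 275 thus lay in the proximal isoform.

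The uncharacterised gene 2010011I20Rik went the other way from most genes over all weeks, with a Dis-pA share that was 1.46% at 3w, went from 33.0% to 56.6% here, and was 66.7% at 6w. Dlat, a subunit of pyruvate dehydrogenase, went from 56.4% to 76.0%, 4933407H18Rik from 54.9% to 73.4% and Rspry1 from 24.8% to 42.6%. For Rspry1 the direction turned when the pAs were chosen on 4w and 5w alone, with a change from 68.9% to 51.2% and a RED of -1.06. By RED the highest values after Scarb1 (3.45) were those of Hmg20b (3.05), Hnrnph3 (3.01), Uqcrb (3.01), Trim35 (2.71) and Hacl1 (2.60). In Hmg20b, Hnrnph3 and Uqcrb these rest on 4 to 6 Dis-pA reads at 5w and 0 at 4w.

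Of the 171 genes on the lists that were compared for site usage, 14 were called shortened (8.19%, near the 7.81% of all genes) and 1 lengthened, against 1.94%. Among RNA storage and translational control genes 3 of 12 were shortened, again beside 7.81% of all genes, namely Eif4h, the cap-binding factor Eif4e (18.4% to 9.51%) and Paip2 (18.9% to 10.4%), an inhibitor of poly(A)-binding protein. Among cholesterol genes 2 of 9 were shortened, beside the same 7.81%, Insig1 and Nsdhl (62.5% to 40.0%). Insig1, which holds back sterol synthesis, had 10 and 98 reads at 4w and 28 and 43 at 5w, a change in Dis-pA share from 90.7% to 60.6% after 99.6% at 3w.

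Single members were shortened in other lists, among them Sox30 (50.7% to 28.2%), a spermatid transcription factor, Rrm2 (90.6% to 51.5%), Actb (97.6% to 91.0%), Cstf2 (9.76% to 3.00%), a subunit of the cleavage stimulation factor, Nr4a1 (5.86% to 2.54%), Chd5 (2.91% to 0.838%), Ropn1 (99.0% to 97.4%) and Spata3, which had no Prx-pA reads at 4w and 7 at 5w. In Spata3 the Prx-pA does not lie beyond the stop codon used, and the mean 3'UTR size was 3432 nt in both weeks. Tnp1 met the rule with 13 and 56 reads at a Prx-pA beside 274730 and 558165 at its Dis-pA. That difference touches a negligible part of its mRNA. No gene was called in the acrosome, manchette, serine kinase, glycolysis, piRNA, pachytene, meiotic, spermatogonial or Sertoli lists, which held 3 to 12 compared genes each.

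The 21 measured genes of the cleavage and polyadenylation machinery lay at the median gene, with a list median of 0.01 relative to it and 11 above it. Cstf1 (1810 and 1799 reads, ratio 0.839), Papolb (1020 and 1229, 1.02), the testis poly(A) polymerase, and Clp1 (680 and 687, 0.853) were 0.14 to 0.41 above it. Cpsf7, a subunit of cleavage factor I, had 937 and 594 reads, a ratio of 0.535 (0.482 to 0.594), and lay 0.51 below it. Cpsf4 (29 and 14 reads) was the 1 member called lower, by RPM and not by TMM.

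Weighted by reads over all last-exon pAs with a known stop codon distance, the mean 3'UTR size of 5359 genes with at least 50 reads in each library had a median of 418 nt at 4w and 399 nt at 5w. It was shorter at 5w in 2490 genes and longer in 1199, and the rest did not change. The median of the differences within genes was 0 nt. A difference of 50 nt or more was seen in 859 genes towards shorter and in 214 towards longer.

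Sites upstream of the last exon (CDS-APA) were compared as the share of reads at intron and upstream exon pAs. Of 2394 genes, 140 were called up (5.85%) and 91 down (3.80%), with a median RED of 0.11. Over all of them the upstream sites held 15.1% of reads at 4w and 16.5% at 5w. In genes called up the share went from 14.5% to 25.9%, and their last-exon level was 0.23 below the median gene, while in genes called down it went from 11.7% to 6.01% and the level was 0.53 above it. The last-exon reads are part of the share, so both measures hold them.

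Ddx21, an RNA helicase of the nucleolus, had the most upstream reads of the 10 genes named for CDS-APA. It had 78 upstream and 900 last-exon reads at 4w and 7 and 834 at 5w, and its share went from 7.98% to 0.832%, a difference of -7.14 points (-9.06 to -5.37). The upstream reads numbered 55 at 3w and at most 1 in the other weeks. Atp2a2, the calcium pump of the endoplasmic reticulum, went from 11 reads (7.91%) to 0, Dcun1d4 from 11 (5.95%) to 1, Ndfip1 from 9 to 0 and Bbs7 from 5 to 0. The highest RED values, of Arhgap5, Zfand6, Zdhhc17, 2400003C14Rik and 2410002O22Rik, rest on 6 to 10 upstream reads at 5w and 0 or 1 at 4w.

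Upstream antisense RNA (uaRNA), read at pAs on the opposite strand before the transcription start site, held 2.85% of the reads at 4w and 2.80% at 5w. Of 1197 genes with at least 20 such reads, 31 were called higher (2.59%) and 58 lower (4.85%), and the median was 0.24 above the median gene of expression. By TMM 108 were higher and 25 lower, so the direction of the calls turns with the scaling. The uaRNA beside Ywhaq went from 178 to 559 reads (44.2 and 117 RPM), a ratio of 2.65 (2.23 to 3.16), after 1 or 2 in each of the earlier weeks. That beside Rbbp6 had 216 and 548 reads, a ratio of 2.14 (1.83 to 2.52).

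In both genes the sense transcript was lower in RPM, by log2 values of -1.04 for Ywhaq and -0.57 for Rbbp6. The median gene stood at -0.39. Ywhaq encodes a 14-3-3 protein, and Rbbp6 a partner of the cleavage and polyadenylation complex. The uaRNAs beside Mmachc (41 and 123 reads), Kdm3a (45 and 116) and Pdrg1 (35 and 90) had ratios of 2.53, 2.18 and 2.17. Of these Kdm3a encodes a histone demethylase that spermatids need. Lower were those beside Sdhaf1 (107 and 41 reads, ratio 0.323), Oxtr (184 and 84, 0.385) and BC024659 (113 and 64, 0.478). They were the only ones called lower with at least 100 reads. Their sense transcripts were lower in RPM too, by log2 values of -0.29, -0.24 and -0.53.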

How the data were processed

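Testis RNA of FVB mice at 1w to 6w was measured by 3'READS, with 1 library per week. According to the labels and the study's methods, the authors used 25 μg of RNA per sample and 15 PCR cycles, aligned reads to mm9 with Bowtie 2 (version not given in the sources used here), kept reads with at least 2 unaligned 5' Ts as poly(A) site supporting (PASS) reads, merged cleavage positions within 24 nt, and deposited raw read counts per pA with a gene, a transcript and a pA class. Gene, class and position were taken from the deposited table. Reads from near-identical gene copies cannot be placed with certainty, and Gapdh, for example, is listed at 0 in both libraries.

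Of 73540 pA rows, 1053 (384 pAs listed more than once) were dropped. Counts were summed per gene and scaled to the total of the kept rows. Expression needed 20 reads over both libraries, site usage 20 in each, CDS-APA also 5 upstream reads, and 3'UTR size 50 in each. No gene compared had 0 reads in either library. Ratios have exact Clopper-Pearson intervals at the 95% level, shares Wilson intervals and their differences Newcombe intervals. With 1 library per week no p-value was computed. TMM factors came from edgeR 4.0.16 and size factors from DESeq2 1.42.0 in R 4.3.3, used for scaling only. Python 3.11.15 with numpy 2.4.6, pandas 2.3.3, scipy 1.17.1 and matplotlib 3.10.9 did the rest, and the steps were tested on simulated data. Stop codon distances and bases before pAs came from a mouse annotation and genome of the same build as mm9.

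The comparison, the 24 gene lists and the rules were chosen with earlier results of these data known. Genes to be named were chosen by rule. From the lists, these were all measured members of the spermatid nuclear, Leydig pathway and adult Leydig lists. Of each other list they were the 4 best-read members, not all of which are given in the text. From all genes, the rule took the 10 highest and 10 lowest ratios among called genes with 200 reads. It also took the 10 largest gains and losses in RPM. For site usage it took the 10 lowest and 6 highest RED among called genes with 100 reads in each library. The 5 highest and lowest were taken for CDS-APA, and the 5 highest and lowest uaRNA ratios with 100 reads. Eif4h and Cep57 were added. Called members of lists and the largest changes in Dis-pA share were added after the values were seen. The 1w, 2w, 3w and 6w libraries serve as context, and their reads also entered the choice of the Prx-pA and Dis-pA. Alternatives varied the scaling, read minima, fold, intervals, added reads, choice of sites and shared pAs. Some members of the cholesterol list are not reported here.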

Additional observations from a re-analysis of the deposited data

Results flagged for a closer look

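Libraries outside the 2 compared hold reads of epididymal genes at levels above both. The reads of Crisp1 numbered 325 at 2w and 421 at 3w, while the libraries compared had 6 and 84. Those of Spink8 were 375 in the 2w library and 376 in the 3w library, against 16 and 32. Defb20 had 93 reads at 2w and 9 at 3w, against 3 and 0.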

How the results depend on the processing

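No paired analysis was possible because each week has 1 library, and for the same reason no library could be left out. Counts of genes higher and lower by RPM (92 and 926) depended most on the scaling. They were 389 and 258 by TMM, 396 and 242 by DESeq2 size factors and 173 and 556 with the total taken without the 10 most abundant genes. Scaled to the supplement's PASS read totals they were 117 and 794. A minimum of 100 reads gave 42 and 243 and a fold of 1.5 gave 327 and 2551. For site usage (439 shortened and 109 lengthened), a minimum of 100 reads in each library gave 206 and 39, RED alone gave 1057 and 458, 50 reads gave 65 lengthened, and the first and last pA gave 52 lengthened. With 50 reads 93 genes had CDS-APA up. For uaRNA (31 higher and 58 lower), a minimum of 50 reads gave 14 and 13, TMM 108 and 25, and a minimum of 10 reads 95 lower. The median 3'UTR size (418 nt at 4w and 399 nt at 5w) was 479 and 454 nt with 20 reads and 364 and 350 nt with 100. Fewer genes compared lowers a count under a higher minimum by construction. Of the other 25 values of this kind, none moved by over 1.5 times. For single genes and lists, 280 values moved by more than their counting interval and 440 did not. Signs changed with the scaling in both groups. Among those that moved, the acrosome list median went from -0.15 by RPM to 0.24 by TMM, and Star from -0.29 to 0.09. Among those that did not, the adult Leydig list median went from -0.33 to 0.05. Rspry1, checked separately, turned from a RED of 1.14 to -1.06 when the pAs were chosen on 4w and 5w alone, which also ended the calls of Abhd2 and Ube2w, and adding intron and upstream exon pAs ended those of 4930544D05Rik, Tdrkh, Tm7sf2 and Srebf2. The causes were not tested. Counting error limits what genes with under 100 reads can show, and differences between animals or libraries of 1 age were not measured.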
